A study of Mus musculus with 6 samples.

Results

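The genes described here encode the subunits of cardiac calcium channels (Cacna1c, Cacna1d, Cacna1g, Cacna1h, Cacnb2 and Cacna2d1), the sodium channel subunit Scn4b and the sodium-calcium exchanger Slc8a1. They are 8 of the 20239 genes with a named probe set, were chosen by gene symbol, and each had 1 probe set. RNA of heart ventricles from 3.5-week-old mice of the 129/Sv background, all labelled male, was read on Affymetrix Mouse Gene ST arrays, with 3 arrays labelled Hspa4-/- and 3 labelled Hspa4+/+ (wild type), 1 mouse each. Hspa4 encodes a chaperone of the Hsp110 family, and the comparison asks what its loss changes in the young heart. The labels name no promoter, Cre line or second allele, and do not say which part of Hspa4 was disrupted. All values are the authors' log2 expression values, so a difference of 1 is a doubling.

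In a ventricular muscle cell, sodium channels open first and set off the action potential, and the L-type calcium channel then lets in the calcium that triggers release from the sarcoplasmic reticulum. That channel is built from a pore-forming alpha-1 subunit, a cytoplasmic beta subunit and an extracellular alpha-2-delta subunit, and both partners help the pore reach the surface and open. T-type calcium channels open at more negative voltages and are best known from the embryonic ventricle and from pacemaker cells. The exchanger Slc8a1 carries most of the calcium back out in return for sodium.

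Not every array carried the Hspa4 level its label gives. In the group labelled Hspa4-/-, Hspa4 read 9.33 (replicate 1), 6.63 (replicate 2) and 6.75 (replicate 3), against 9.74, 9.50 and 9.48 on the wild-type arrays. Replicate 1 therefore lay near wild type, against its genotype label. Xist, which female cells transcribe, was 7.68 on it and 5.51 to 5.69 on the other arrays, which goes against its sex label too. Whether the sample was exchanged or mixed was not tested. Differences between the groups are given with all 6 arrays and with the 5 that remain without it. Array medians ran from 6.43 to 6.48 and array SDs from 1.19 to 1.27. The SDs were 1.20, 1.25 and 1.27 on the arrays labelled Hspa4-/- and 1.23, 1.25 and 1.19 on the wild-type arrays. Lower quartiles were 5.87, 5.82 and 5.78 against 5.84, 5.82 and 5.90. Whether these differences in scale go with the direction of low-signal genes on 5 arrays was not tested. The table holds no background measure, and the small number of arrays limits the precision.

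Among the 8 genes, Cacna1c and Cacna1g were higher on every array labelled Hspa4-/- than on any wild-type array, and Cacnb2, Cacna2d1 and Scn4b were lower. The differences were small, from 1.13-fold to 1.25-fold in size, and 0 of the 8 passed the threshold of 0.05 on the adjusted p (limma, Benjamini-Hochberg over 20239 genes). With 6 arrays 0 genes, or 0%, passed at all, and without the array labelled Hspa4-/- replicate 1 the share was 0.44%, again with 0 of the 8. At an unadjusted p under 0.05 the count was 5 of 8 with 6 arrays, against 2261 or 11.2% of all genes, and 6 of 8 with 5 arrays, against 14.9% (limma). The groups did not overlap in 5 of 8 with 6 arrays, where 15.1% of all genes did not, and in 6 of 8 with 5 arrays, where 33.3% did not. By direction, 2 were higher and 3 lower with 6 arrays, where 6.08% of all genes were higher and 9.07% lower without overlap, and 3 were higher and 3 lower with 5 arrays, where 14.4% were higher and 18.9% lower. The 8 genes were named with earlier results of these data known, so these counts describe them and do not test them. Their median absolute difference was 0.18, against 0.07 over all genes tested, with 6 arrays, and 0.20 against 0.08 with 5. The shares over all genes take in every signal level, and no share was computed for genes of like signal. Among the marker lists read below, 4 of 6 macrophage and 5 of 11 smooth muscle and pericyte genes did not overlap with 6 arrays. Of the fibroblast and skeletal muscle markers, 0 of 8 and 0 of 6 did not.

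**Figure D1:**
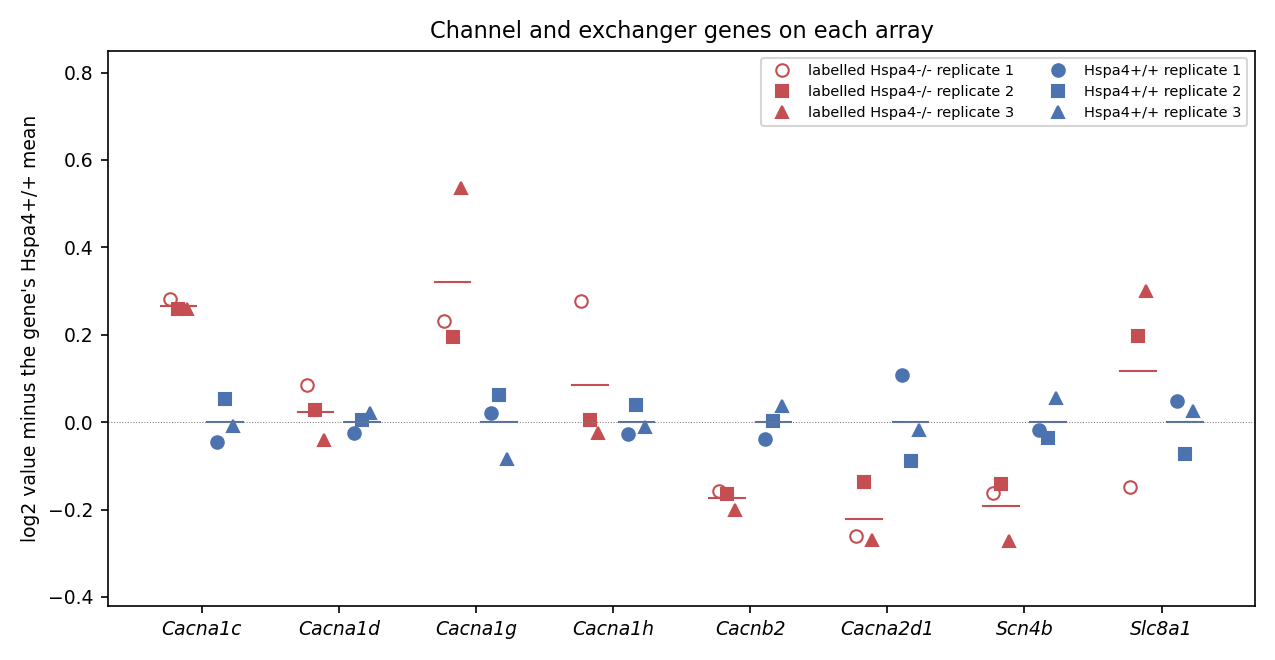
Log2 value of each gene on each array after its wild-type mean is subtracted, with the arrays labelled Hspa4-/- (red) left of the Hspa4+/+ arrays (blue) and short lines at the group means. The open circle is the array labelled Hspa4-/- replicate 1. It lies with the other red points in Cacna1c, Cacna1g, Cacnb2, Cacna2d1 and Scn4b, and apart from them in Cacna1h and Slc8a1.

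Cacna1c encodes Cav1.2, the pore of the main L-type channel of ventricular muscle, and it had the smallest p of the 8 genes. It measured 10.46, 10.43 and 10.43 on the arrays labelled Hspa4-/-, against 10.13, 10.23 and 10.17 on the wild-type arrays. All 3 arrays labelled Hspa4-/- stood above the highest wild-type array, and the array with wild-type-like Hspa4 stood among them. The means were 10.44 ± 0.01 on the arrays labelled Hspa4-/- and 10.17 ± 0.05 in wild type (SD, n = 3 each). The difference of 0.27 (SE 0.06, 95% interval 0.13 to 0.41) is 1.20-fold and did not pass (limma, adjusted p = 0.221). With 5 arrays it was 0.26 (SE 0.07; limma, adjusted p = 0.141).

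Cacna1d encodes Cav1.3, the L-type pore better known from the sinoatrial node and atria. It read 6.27, 6.21 and 6.14 on the arrays labelled Hspa4-/- and 6.16, 6.19 and 6.21 on the wild-type arrays. The groups overlapped, and the direction turned with the array labelled Hspa4-/- replicate 1. The difference was 0.02 with 6 arrays (SE 0.06, 95% interval −0.12 to 0.17; limma, adjusted p = 0.935) and −0.01 with 5 (SE 0.07; limma, adjusted p = 0.978). The interval leaves room for a change of up to 1.12-fold upward. These values lay below the array medians, in the lower part of each array's range.

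Cacnb2 encodes the main beta subunit of the cardiac L-type channel, which binds the pore's first cytoplasmic linker. It was 9.91, 9.90 and 9.87 on the arrays labelled Hspa4-/-, against 10.03, 10.07 and 10.11 in wild type. Each array labelled Hspa4-/- lay below each wild-type array, and the spread within both groups was small. The difference of −0.17 (SE 0.06, 95% interval −0.31 to −0.04) is 1.13-fold lower and did not pass (limma, adjusted p = 0.329). With 5 arrays it was −0.18 (SE 0.07; limma, adjusted p = 0.258).

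Cacna2d1 encodes the alpha-2-delta-1 subunit, the binding site of gabapentin drugs. It read 10.17, 10.30 and 10.17 on the arrays labelled Hspa4-/-, against 10.54, 10.35 and 10.42 on the wild-type arrays. The groups did not overlap, though wild-type replicate 2 and the array labelled Hspa4-/- replicate 2 lay close together. The difference was −0.22 (SE 0.08, 95% interval −0.39 to −0.05; limma, adjusted p = 0.313), or 1.17-fold lower. After quantile normalisation those arrays changed order, at 10.31 on the array labelled Hspa4-/- replicate 2 and 10.30 on wild-type replicate 2, so the groups overlapped. With 5 arrays the difference was −0.20 (SE 0.08; limma, adjusted p = 0.306).

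The pore gene and its accessory subunit genes therefore lay on opposite sides of wild type. Subtracting within each array, with wild-type means set to 0, Cacna1c minus Cacnb2 was 0.44, 0.42 and 0.46 on the arrays labelled Hspa4-/- and −0.01, 0.05 and −0.05 on the wild-type arrays. Cacna1c minus Cacna2d1 was 0.54, 0.40 and 0.53 on the arrays labelled Hspa4-/-, against −0.15, 0.14 and 0.01 in wild type. Any shift shared by all genes of an array cancels in such a subtraction. Both pairs were picked after their values were seen, so no test is given. The array labelled Hspa4-/- replicate 1 lay beside the other arrays of its label in both.

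**Figure D2:**
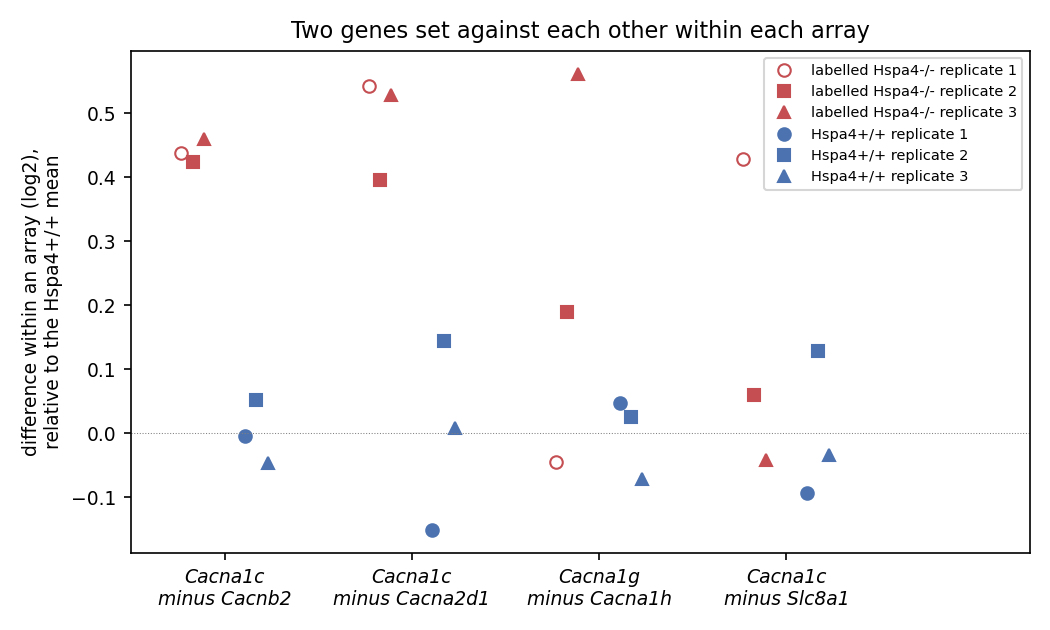
Log2 difference between the named genes within each array, each gene first set against its own wild-type mean, with the arrays labelled Hspa4-/- (red) left of Hspa4+/+ (blue). Cacna1c minus Cacnb2 lies between 0.42 and 0.46 on the arrays labelled Hspa4-/- and between −0.05 and 0.05 in wild type, while Cacna1c minus Slc8a1 and Cacna1g minus Cacna1h scatter from array to array.

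The DNA upstream of Cacna1c and Cacnb2 is shown because these partners of the L-type channel differed in opposite directions. RefSeq's promoter table (GRCm38.p6) held windows for 6 of the 8 genes, with several starts for Cacna1c, Cacnb2 and Cacna1d. The arrays read transcripts along their length and do not tell which start was used. The 250 bases before a start are given, read along the gene's own strand. Capitals mark GGGCGG (the GC box bound by Sp1), CAGCTG (an E-box) and TTCNNGAA (inverted GAA units of the kind that heat shock factors bind), searched on both strands, with neighbouring GC boxes allowed to overlap.
Cacna1c, second start, chr6:119108496-119108745, minus strand: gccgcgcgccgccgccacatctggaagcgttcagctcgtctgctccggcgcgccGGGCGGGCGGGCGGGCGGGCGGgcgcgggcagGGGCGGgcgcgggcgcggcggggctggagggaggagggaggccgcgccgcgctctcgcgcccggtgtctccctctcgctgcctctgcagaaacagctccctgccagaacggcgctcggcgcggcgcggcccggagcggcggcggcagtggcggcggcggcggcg
Cacna1c, last start, chr6:118757975-118758224, minus strand: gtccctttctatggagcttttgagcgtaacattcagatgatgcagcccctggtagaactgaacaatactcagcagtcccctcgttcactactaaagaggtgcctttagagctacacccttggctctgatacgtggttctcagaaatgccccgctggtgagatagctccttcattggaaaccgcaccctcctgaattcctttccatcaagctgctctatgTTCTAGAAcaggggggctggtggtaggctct
Cacnb2, first start, chr2:14604056-14604305, plus strand: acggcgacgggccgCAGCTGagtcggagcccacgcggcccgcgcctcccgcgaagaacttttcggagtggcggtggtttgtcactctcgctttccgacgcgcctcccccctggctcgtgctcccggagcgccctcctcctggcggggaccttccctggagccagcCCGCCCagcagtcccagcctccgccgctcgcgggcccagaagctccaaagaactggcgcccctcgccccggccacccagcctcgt
Cacnb2, second start, chr2:14823842-14824091, plus strand: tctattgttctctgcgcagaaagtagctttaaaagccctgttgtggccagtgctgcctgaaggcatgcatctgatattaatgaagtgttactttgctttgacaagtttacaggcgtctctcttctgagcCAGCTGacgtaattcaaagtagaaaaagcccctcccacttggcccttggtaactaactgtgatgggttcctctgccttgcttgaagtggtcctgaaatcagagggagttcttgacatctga

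The second Cacna1c start had 82.8% G and C and 6 overlapping or separate GC boxes, and the first Cacnb2 start had 73.2% and 1 GC box on the opposite strand. A GC box stood in 32.7% of the 32851 windows of this length. CAGCTG stood once before each Cacnb2 start and in 13% of all windows. TTCNNGAA stood once before the last Cacna1c start, whose window had 50.4% G and C, and in 7.17% of all windows. Among the windows not printed, the Cacna2d1 window had 82.4% G and C with 6 GC boxes. None of the motifs stood in the windows of Scn4b (66.0% G and C), Slc8a1 (50.4%), the first Cacna1c start (51.6%) or the first Cacna1d start (39.6%). The second Cacna1d window had 86.4% with 5 GC boxes and 1 CAGCTG. Whether any motif goes with a gene's difference was not tested. These matches describe the letters of the windows only.

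Cacna1g encodes Cav3.1, a T-type pore, and had the largest difference of the 8 genes. It read 7.62, 7.58 and 7.92 on the arrays labelled Hspa4-/-, against 7.41, 7.45 and 7.30 on the wild-type arrays. The groups did not overlap, and the array labelled Hspa4-/- replicate 3 stood well above the other arrays of its label. The means were 7.71 ± 0.19 on the arrays labelled Hspa4-/- and 7.39 ± 0.08 in wild type (SD, n = 3 each). The difference of 0.32 (SE 0.10, 95% interval 0.11 to 0.54) is 1.25-fold and did not pass (limma, adjusted p = 0.272). With 5 arrays it was 0.37 (SE 0.10; limma, adjusted p = 0.165). That value rested on few arrays: of the 5, leaving out the array labelled Hspa4-/- replicate 3 as well gave 0.19, and leaving out replicate 2 of that label gave 0.54. With 6 arrays it was 0.21 without replicate 3 alone.

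Cacna1h encodes Cav3.2, the other T-type pore of the heart, which is also made in vascular smooth muscle. It was 6.42, 6.14 and 6.11 on the arrays labelled Hspa4-/-, against 6.11, 6.18 and 6.13 in wild type. Here the array labelled Hspa4-/- replicate 1 alone was high, and the other arrays of its label lay within the wild-type range. All Cacna1h values lay below the array medians, as those of Cacna1d did. The difference was 0.09 with 6 arrays (SE 0.09, 95% interval −0.11 to 0.28; limma, adjusted p = 0.791) and −0.01 with 5 (SE 0.07, 95% interval −0.16 to 0.14; limma, adjusted p = 0.964). Whether Cacna1g and Cacna1h differed from each other in response was not tested. Cacna1g minus Cacna1h, set against wild type, was −0.05, 0.19 and 0.56 on the arrays labelled Hspa4-/- and 0.05, 0.02 and −0.07 on the wild-type arrays.

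Scn4b encodes the beta-4 subunit of voltage-gated sodium channels, a small membrane protein with an immunoglobulin fold that changes how the channel opens and closes. It measured 5.78, 5.80 and 5.67 on the arrays labelled Hspa4-/-, against 5.93, 5.91 and 5.999 in wild type. All 3 arrays labelled Hspa4-/- lay below all wild-type arrays. The difference of −0.19 (SE 0.07, 95% interval −0.34 to −0.04) is 1.14-fold lower and did not pass (limma, adjusted p = 0.325). With 5 arrays it was −0.21 (SE 0.07; limma, adjusted p = 0.250). Scn4b lay near the lower quartile of the arrays, which ran from 5.78 to 5.90, and with no background measure it is unknown how far this signal stood above background.

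Slc8a1 encodes NCX1, the sodium-calcium exchanger of the surface membrane. It read 8.03, 8.38 and 8.48 on the arrays labelled Hspa4-/-, against 8.23, 8.11 and 8.21 in wild type. Of the arrays labelled Hspa4-/-, replicates 2 and 3 were above every wild-type array, and replicate 1, whose Hspa4 goes against its label, was below every one. With 6 arrays the difference was 0.12 (SE 0.11, 95% interval −0.13 to 0.36; limma, adjusted p = 0.766). With 5 arrays it was 0.25 (SE 0.07, 95% interval 0.08 to 0.42), or 1.19-fold, and did not pass (limma, adjusted p = 0.178). Of the 8 genes, Slc8a1 was the one that joined those without overlap when that array was left out. After quantile normalisation of the 5 arrays its difference was 0.19 (SE 0.08; limma, adjusted p = 0.327).

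**Figure D3:**
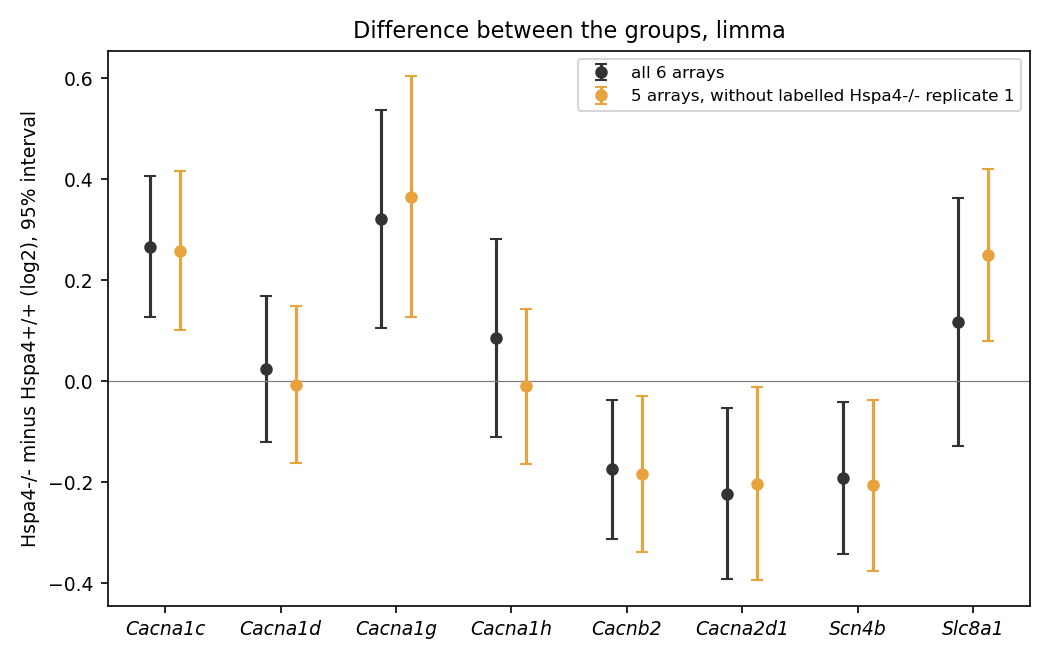
Log2 difference, Hspa4-/- minus Hspa4+/+, with limma's 95% interval for each gene, from all 6 arrays (black) and from the 5 without the array labelled Hspa4-/- replicate 1 (orange). Cacna1c, Cacna1g, Cacnb2, Cacna2d1 and Scn4b keep their side of 0 in both, Slc8a1 is at 0.12 with 6 arrays and 0.25 with 5, and Cacna1d and Cacna1h stay near 0 with 5 arrays.

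The relatives of these genes were read from lists of the wider channel families. Of the 10 other sodium channel subunits measured, 0 passed in either direction with 6 or with 5 arrays (limma), and 1 had an unadjusted p under 0.05 in each, against 11.2% and 14.9% of all genes. The groups did not overlap in 1 of the 10 with 6 arrays and in 4 with 5, each lower, where 9.07% and 18.9% of all genes were lower without overlap. Scn7a, an atypical family member that senses sodium outside the cell, had the smallest p. It read 8.51, 8.38 and 8.29 on the arrays labelled Hspa4-/-, against 8.78, 8.69 and 8.74 in wild type, with no overlap. Its difference was −0.34 (SE 0.07; limma, adjusted p = 0.210) with 6 arrays and −0.40 (SE 0.07; limma, adjusted p = 0.0588) with 5. Scn3a, a pore best known from neurons, differed by −0.13 (SE 0.07; limma, adjusted p = 0.547) with 6 arrays and −0.15 (SE 0.08; limma, adjusted p = 0.438) with 5, and its groups overlapped. The median difference of the list was −0.04 with 6 arrays and −0.07 with 5, against −0.01 and −0.02 over all genes tested.

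Of the 19 other calcium channel subunits measured, 0 passed in either form (limma) and 0 had an unadjusted p under 0.05 (11.2% and 14.9% of all genes did). With 6 arrays the groups were free of overlap in 0 of the 19, where they were in 15.1% of all genes. The smallest p of the list with 6 arrays belonged to the N-type pore gene Cacna1b and to Cacna2d4. Cacna1b differed by −0.08 (SE 0.08; limma, adjusted p = 0.776) with 6 arrays and −0.15 (SE 0.08; limma, adjusted p = 0.401) with 5. Cacna2d4 differed by 0.06 (SE 0.07; limma, adjusted p = 0.848) with 6 arrays and 0.05 (SE 0.08; limma, adjusted p = 0.825) with 5. The median absolute difference was 0.18 in the 8 genes and 0.03 in this list with 6 arrays, and 0.20 and 0.05 with 5. The 19 genes averaged 6.04 to 6.18 on the arrays labelled Hspa4-/- and 6.06 to 6.14 in wild type, below the array medians. The 8 genes averaged 8.08 to 8.10 on the arrays labelled Hspa4-/- and 8.06 to 8.07 in wild type. Whether the smaller differences of the list go with its lower signal was not tested. With 5 arrays 5 of the 19 did not overlap, each lower, against 18.9% of all genes.

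Among 20 measured genes for partners and regulators of these channels, 0 passed in either form (limma), while 3 with 6 arrays and 6 with 5 had an unadjusted p under 0.05, where 11.2% and 14.9% of all genes did. Jph2 encodes junctophilin-2, which holds the surface membrane close to the sarcoplasmic reticulum where Cav1.2 faces the release channel. It was 8.67, 8.61 and 8.86 on the arrays labelled Hspa4-/-, against 8.29, 8.39 and 8.19 in wild type. The groups did not overlap, and the difference was 0.42 (SE 0.08; limma, adjusted p = 0.210) with 6 arrays and 0.44 (SE 0.10; limma, adjusted p = 0.0877) with 5. Fgf14, an intracellular factor that binds sodium channel tails, differed by −0.27 (SE 0.07; limma, adjusted p = 0.234) with 6 arrays and −0.30 (SE 0.07; limma, adjusted p = 0.115) with 5, also without overlap. In the list as a whole 1 gene was higher and 4 were lower without overlap with 6 arrays, where 6.08% of all genes were higher and 9.07% lower. Without the array labelled Hspa4-/- replicate 1, 5 were higher and 5 lower, where 14.4% of all genes were higher and 18.9% lower.

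Of 10 other surface transporters of sodium and calcium, 0 passed in either form (limma), while 3 with 6 arrays and 2 with 5 had an unadjusted p under 0.05, where 11.2% and 14.9% of all genes did. Fxyd1 encodes phospholemman, which restrains the sodium pump and NCX1. It read 9.80, 10.002 and 9.80 on the arrays labelled Hspa4-/-, against 9.35, 9.70 and 9.46 in wild type, a difference of 0.37 (SE 0.10; limma, adjusted p = 0.247) with 6 arrays and 0.40 (SE 0.11; limma, adjusted p = 0.153) with 5. Atp2b1, a calcium pump of the surface membrane, was 9.44, 9.25 and 9.29 on the arrays labelled Hspa4-/-, against 9.74, 9.56 and 9.59 in wild type. The difference was −0.31 (SE 0.08; limma, adjusted p = 0.240) with 6 arrays and −0.36 (SE 0.08; limma, adjusted p = 0.0877) with 5. Neither gene overlapped between the groups.

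**Figure D4:**
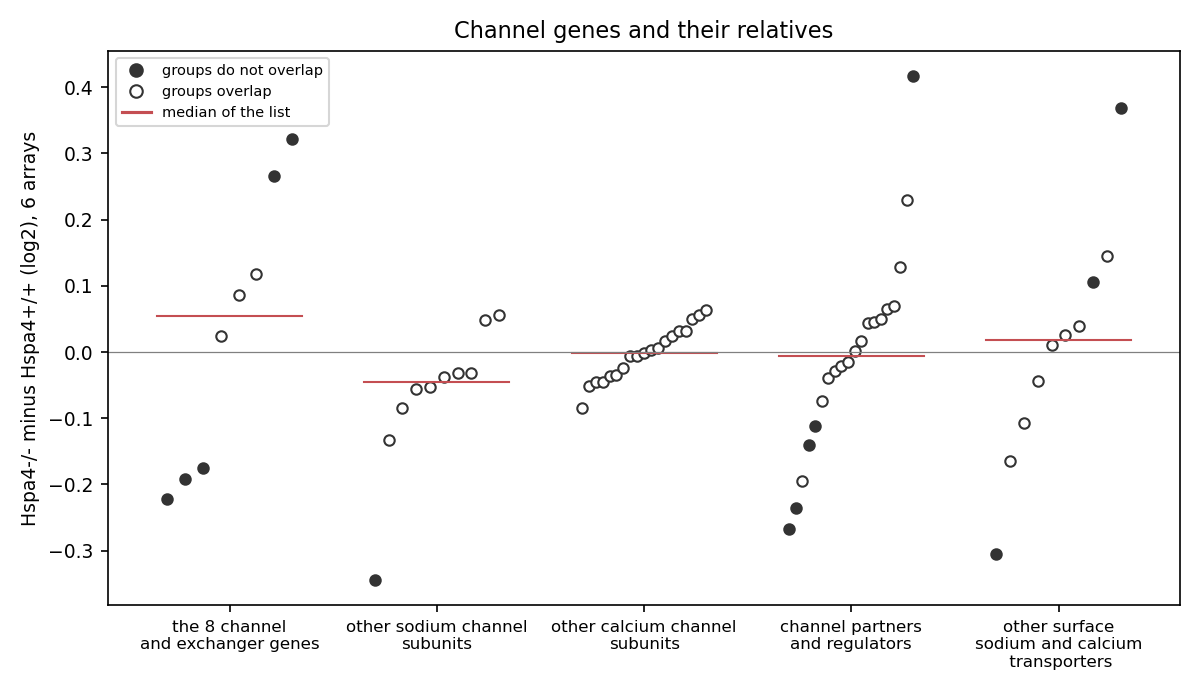
Log2 difference, Hspa4-/- minus Hspa4+/+ with 6 arrays, of each gene (points) in the 8 channel and exchanger genes and in the 4 lists of relatives, with red lines at the list medians. Filled points are genes whose groups do not overlap, 5 of 8 in the first list and 0 of 19 among the other calcium channel subunits. Of all genes, 15.1% do not overlap. The other calcium channel subunits average below the array medians, and the 8 genes above them.

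The genes with the most alike pattern over the 6 arrays were found by the root mean square difference in log2 values, after each gene's wild-type mean was subtracted. For Cacna1c these were Pde2a (0.016), Irf2bpl (0.024) and Rph3al (0.029). Their own differences were 0.26, 0.27 and 0.25 with 6 arrays (limma, adjusted p = 0.227, 0.221 and 0.245) and 0.25, 0.28 and 0.25 with 5 (limma, adjusted p = 0.158, 0.116 and 0.173). For Cacna1g they were Nos3 (0.039), Otud5 (0.040) and Itga5 (0.041), with differences of 0.36, 0.27 and 0.31 with 6 arrays (limma, adjusted p = 0.234, 0.319 and 0.308) and 0.39, 0.31 and 0.35 with 5 (limma, adjusted p = 0.139, 0.198 and 0.215). This likeness rests on few arrays and was not tested.

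In whole ventricles, fewer cells of a type and less RNA per cell cannot be told apart. Cardiomyocyte markers averaged 12.01 to 12.09 on the arrays labelled Hspa4-/- and 11.86 to 11.94 in wild type (mean log2 value of 9 genes). In that list 9 of 9 were higher on average in both forms, where 9278 of all 20239 genes were with 6 arrays and 8770 with 5. Without overlap, 5 of 9 were higher with 6 arrays and 6 of 9 with 5, where 6.08% and 14.4% of all genes were. The median difference of the list was 0.12 with 6 arrays and 0.14 with 5. Smooth muscle and pericyte markers averaged 8.31 to 8.48 on the arrays labelled Hspa4-/- and 8.25 to 8.32 in wild type (11 genes). Their median difference was 0.11 with 6 arrays and 0.20 without the array labelled Hspa4-/- replicate 1, on which alone it was −0.06. Atrial and conduction markers averaged 6.34 to 6.39 on the arrays labelled Hspa4-/- and 6.31 to 6.36 in wild type (9 genes). Among the conduction markers the pacemaker channel gene Hcn4 differed by −0.27 (limma, adjusted p = 0.270) with 6 arrays and −0.36 (limma, adjusted p = 0.0655) with 5. Tbx3 differed by 0.24 (limma, adjusted p = 0.349) with 6 arrays and 0.28 (limma, adjusted p = 0.205) with 5. Macrophage markers averaged 7.11 to 7.13 on the arrays labelled Hspa4-/- and 7.23 to 7.35 in wild type (6 genes), with a median difference of −0.15 with 6 arrays and −0.16 with 5. The list means of the cardiomyocyte and macrophage markers did not overlap between the groups, and their part in the channel gene differences was not tested. Skeletal muscle markers averaged 6.02 to 6.14 on the arrays labelled Hspa4-/- and 6.02 to 6.16 in wild type (6 genes). Fibroblast markers averaged 8.499 to 8.73 on the arrays labelled Hspa4-/- and 8.53 to 8.60 in wild type (8 genes), and endothelial markers averaged 8.89 to 9.10 on the arrays labelled Hspa4-/- and 8.86 to 8.92 in wild type (7 genes). Schwann cell and neuron markers averaged 5.88 to 6.01 on the arrays labelled Hspa4-/- and 5.93 to 6.04 in wild type (7 genes). On this log2 scale no marker can read 0.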

How the data were processed

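The authors deposited log2 expression values, 1 for each probe set and array, for which the submitters' processing notes name affy and R 2.13.0. Neither labels nor notes state the background correction, normalisation or probe summary. The values were used as deposited. Probe sets were named through the platform annotation: of 21225, 20239 carried 1 symbol, 0 several and 986 none. Groups came from the labels.

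Groups were compared with limma 3.58.1 in R 4.3.3 (lmFit, then eBayes), fitted on 20239 genes and checked on simulated data. P-values were adjusted over all of them by Benjamini-Hochberg, with a threshold of 0.05. Differences are Hspa4-/- minus Hspa4+/+ means, with limma's moderated SE and 95% interval. No filter was applied. The alternatives were filters on low values, quantile normalisation, subtracted array medians, array weights, a replicate block, an intensity trend and leaving out each array.

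The 8 genes and all lists were chosen with earlier results of these data known. Named genes were the 8, Hspa4, the 2 genes of each related list with the smallest p where none passed, and for the 2 genes with the largest difference the 3 most alike genes. Hcn4 and Tbx3 were named after their values were seen. List genes with no named probe set were not analysed here.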

Additional observations from a re-analysis of the deposited data

How the results depend on the processing

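With 6 or 5 arrays, 0 of the 8 genes passed in every alternative run. Cacna1c, Cacna1g, Cacnb2, Cacna2d1, Scn4b and Slc8a1 kept their direction in every alternative that measured them, with Cacna1c between 0.24 and 0.29 and Slc8a1 between 0.03 and 0.25 (6 arrays). Cacna1g ran from 0.21 to 0.38 with 6 arrays and from 0.19 to 0.54 with 5. The smallest adjusted p over those of Cacna1c was 0.0592. Scn4b, Cacna1d and Cacna1h were not tested without the lowest 50% of genes. Without 1 array in turn, Cacna1d ran from −0.00641 to 0.0569 and Cacna1h from −0.0100 to 0.142 with 6 arrays. With 5 arrays these ranges were −0.0414 to 0.0285 for Cacna1d and −0.0256 to 0.00928 for Cacna1h. There quantile normalisation turned Cacna1d to 0.0297 and Cacna1h to 0.0286, and subtracted medians turned Cacna1d to 0.00265. Quantile normalisation, added after seeing the data for this count, left 4 of the 8 genes without overlap with 6 arrays and 5 with 5. The share of all genes without overlap was not computed after that normalisation, so these counts have no background beside them.

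The count over all genes was far less stable. With 6 arrays it was 2 after either filter, 115 with array weights and 0 to 112 without 1 array, 89 without the array labelled Hspa4-/- replicate 1 and 112 without wild-type replicate 2. With 5 arrays it was 89, but 156 and 167 after the filters, 36 with subtracted medians, 321 with array weights and 2 to 875 without 1 more array. Leaving out the array labelled Hspa4-/- replicate 2 gave 25 genes and replicate 3 of that label 19. Leaving out wild-type replicate 1 gave 6 genes, replicate 2 gave 875 and replicate 3 gave 2. The share of higher calls moved both ways: on 5 arrays it was 47 of 89, but 16 of 36 with subtracted medians, 93 of 156 and 98 of 167 after the filters, 185 of 321 with array weights and 635 of 875 without wild-type replicate 2. On 6 arrays it was 33 of 115 with array weights and 74 of 112 without wild-type replicate 2. Hspa4 differed by −2.01 (limma, adjusted p = 0.263), by −2.54 with array weights (adjusted p = 0.0488) and by −2.89 to −1.54 without 1 array. The cause of these movements was not tested.

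Deviations from the group means of same-numbered arrays correlated at −0.17, 0.09 and −0.25 across genes, and those of other-numbered arrays at −0.16 to 0.33. With 3 arrays per group the deviations of a group sum to 0. These values therefore cannot decide whether equal replicate numbers pair the samples. With the replicate block 2 genes passed with 6 arrays and 134 with 5, and 0 of the 8 in either.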
